A study of Ovis aries with 6 samples.

Results

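A set of 180 nuclear genes had reads in the skin of every animal although their total count was 0 in each of the 6 libraries, and these genes therefore enter no test that is based on counts. They were chosen from the 28394 gene rows deposited for each sheep as the rows that had no count in any of the 6 libraries but had, in each of the 6, an RPKM (fragments scaled to the length of the gene in kilobases and to the counted fragments of the library) of 2 or more, leaving out the 13 genes of the mitochondrial record. The level in each sheep chose the members, so that a gene that was nearly silent in either breed could not be among them, and their levels are given here as a description. Of the 10571 rows without any count, 6280 were also at 0 in RPKM and in 4278 nuclear rows the RPKM was above 0 in 1 or more of the sheep. The members are 180 of these 4278.

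Skin RNA was taken behind the shoulder blade of 3 Super Merino (SM) and 3 Small Tail Han (STH) sheep, and 1 library of polyA RNA was made from every animal. Values are given throughout in the order 128, 30034, 30126 for SM and XW3, XW5, XW8 for STH, the labels of the animals. The labels give all sheep an age of 9 months, a value that differs from the age in the methods of the study, which describe ewes of both breeds kept on 1 farm. Super Merino is a fine wool breed, and Small Tail Han carries coarse and partly medullated wool. Whole skin was sequenced, so a difference in cell composition and a difference in RNA per cell cannot be told apart.

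A gene row in an annotation can be a protein-coding gene, a long non-coding RNA (lncRNA), which is transcribed and often spliced but not translated, or a pseudogene, a disabled copy of another gene. Many pseudogenes are processed copies: a messenger RNA was copied back into DNA and inserted elsewhere, so that the copy has no introns and can resemble its parent closely enough to share sequencing reads with it. Names beginning with LOC are provisional identifiers given to gene models that have no assigned symbol.

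The total counts ranged from 28870583 to 44645091, and the fragments that the RPKM values are scaled to ranged from 44035680 to 62908884. The study calls the latter counted fragments, but its read statistics show them to be all mapped reads, in intact and in broken pairs. A fragment here is thus a mapped read, and both reads of a pair are counted. In all 4291 rows with an RPKM but no count, mitochondrial rows included, the RPKM multiplied by the whole span of the row and by the counted fragments gave a whole number of fragments in every sheep, within a tolerance of 0.02. The RPKM of a member is thus a value per kilobase of its whole span, introns included, whereas that of a counted gene is per kilobase of exons. The members held between 44 and 59634 fragments in a sheep, and the lowest library of a member had a median of 595. Together they took between 0.7497% and 0.846% of all counted fragments. Skin markers were present: KRT5, the keratin of basal keratinocytes, had a scaled RPKM of 1450 to 2610, and KRT71, of the inner root sheath of the wool follicle, of 1569 to 2866.

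The members were short, and a smaller share of them than of the counted rows was typed as protein-coding. Their span had a median of 1520 bases, with a range of 305 to 36220, against a median of 20175 bases in the 17823 counted rows. The limit on RPKM, which for these rows is per kilobase of span, itself favours short rows. In the other nuclear rows with an RPKM but no count the median span was 5438 bases. The exon length to which the RPKM of counted rows refers had a median of 2925 bases. The RefSeq name table, which is of another assembly (ARS-UI_Ramb_v3.0), held 104 of the 180 members. It types 54 of them as protein-coding (30% of the members), 32 as pseudogenes, 16 as lncRNA, 1 as a transcribed pseudogene and 1 as an immunoglobulin or T cell receptor constant region, while the identifiers of the other 76 members (42.2%) are not in it. Among counted rows 93.7% are typed as protein-coding, 0.718% as pseudogenes and 0.0561% as lncRNA. Among the 4098 other nuclear rows with an RPKM but no count, 8.71% are protein-coding, 17.5% pseudogenes and 15.2% lncRNA. Another 57.9% of those rows are not in the name table, against 5.52% of the counted rows.

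**Figure D1:**
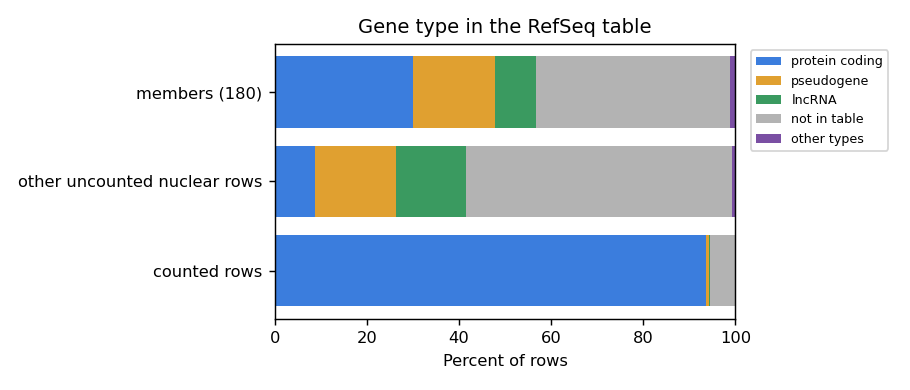
Percent of rows (x axis) of each gene type in the RefSeq table, for the 180 members, the other nuclear rows with an RPKM but no count, and the counted rows. Rows typed as protein-coding make up 30% of the members and 93.7% of the counted rows, and 42.2% and 5.52% are not in the table.

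Pseudogenes had a median span of 859 bases and lncRNA members of 3063 bases. The protein-coding members lay between these, with a median of 1244 bases. The median scaled RPKM was 9.33 for pseudogenes, 7.66 for lncRNA, 9.61 for protein-coding members and 7.59 for members outside the table. Only 19 members have a symbol other than a LOC identifier in the table, and KIAA2013 alone carries it in the deposited files.

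Levels were spread over more than 2 orders of magnitude, from a mean scaled RPKM of 2.38 to 530. The median member stood at 8.60, with 6 members at 100 or more, 53 at 20 or more and 57 under 5. Scaled RPKM here is the deposited RPKM after TMM scaling between sheep. The 10 highest members held 38.5% to 43.0% of the summed level of all 180 in a sheep. By their lowest deposited RPKM, the members nearest to the limit of 2 were LOC105603775 at 2.03, LOC101106466 (PACS2) at 2.04 and LOC101109850 at 2.13, and the rows that just missed it were LOC105602800 at 1.996, LOC105609758 at 1.995 and LOC105612936 at 1.991.

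The highest member was LOC101119757, a pseudogene of 759 bases (chr17:29160774-29161532, Oar_v4.0, minus strand). Its scaled RPKM was 498, 690 and 560 in SM against 457, 476 and 497 in STH. The breeds did not overlap, but the gap between SM 128 and STH XW8 was small, and the difference did not pass the test (log2 fold change 0.28 ± 0.19, adjusted p = 0.408). Every log2 fold change is SM over STH and is given ± its standard error. LOC101109655, typed as protein-coding and 794 bases long (chr1:10172655-10173448), followed with 356, 409 and 594 in SM against 395, 327 and 272 in STH. The breeds overlapped, with SM 30126 far above the rest.

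LOC101114092 (chr3:159729873-159730417) had 167, 129 and 252 in SM against 254, 191 and 178 in STH, so that the breeds overlapped and SM sheep spanned nearly the whole range. LOC101111388 (chr15:32592382-32593546) was at 116, 121 and 87.7 in SM against 154, 126 and 123 in STH. Each STH animal exceeded each SM animal, by a narrow margin, and the adjusted p was 0.340. LOC105605515, a model on the X chromosome (chrX:65874259-65880885) that is not in the name table, had 68.9, 104 and 71.0 in SM against 135, 111 and 111 in STH (log2 fold change -0.57 ± 0.19, adjusted p = 0.237).

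Of the other members among the 10 highest, LOC101110527, a protein-coding model of 347 bases (chr12:38971884-38972230), stood at 110, 84.9 and 133 in SM against 84.7, 59.4 and 82.7 in STH. Its breeds were separated only by the distance between SM 30034 and STH XW3. LOC101103097, LOC105610521 and LOC105603284 had mean scaled RPKM of 115, 82.5 and 78.0 with overlapping breeds, and in each of the 3 the highest sheep was SM 30126.

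**Figure D2:**
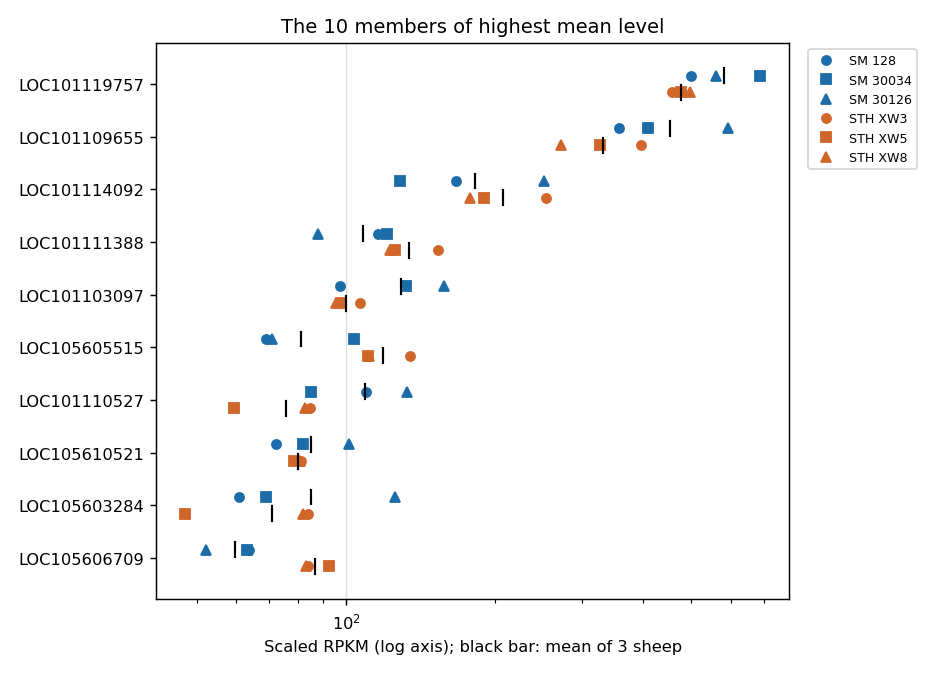
Scaled RPKM (x axis, log scale) of the 10 members of highest mean level, with 1 point for each sheep, SM in blue and STH in orange, and a black bar for the mean of 3 sheep. LOC101119757 reached 457 to 690 and is followed by LOC101109655 at 272 to 594.

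No member passed the comparison of the breeds. Scaled log2(RPKM + 0.1) was compared by limma with a trend over the 16220 rows that reached an RPKM of 0.1 in 3 or more libraries, all 180 members included. At the thresholds of the study for adjusted p and fold change, 0 of the 180 members and 6 of the 16220 rows (0.037%) were called, and the smallest adjusted p of a member was 0.158. The study applied these thresholds to another test, edgeR on counts, and its list of genes was far longer than 6. At an unadjusted p under 0.05 there were 30 members, 13 with the higher mean in SM and 17 in STH. This is 16.7% of the members against 18.5% of all rows tested (7.24% in the SM direction, 11.3% in the STH direction), so the members did not stand out from the background. By edgeR's quasi-likelihood test on fragments rebuilt from the RPKM, which was added after the data had been seen, 0 members were called and 24 had an unadjusted p under 0.05, 12 in each direction, where 6.92% and 9.61% of all rows did. DESeq2 on the same fragments called 3 members, against 415 of 17483 rows (2.37%). A fold change on the log2(RPKM + 0.1) scale slightly understates that of the lowest members.

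The log2 fold changes of the members ran from -1.20 to 1.62, with a median of 0.04, and the median over all rows tested was 0.01. SM sheep were higher in 101 members and STH sheep in 79 (56.1% higher in SM, against 51.1% of all rows). This split was 80 to 100 when TPM replaced RPKM, and 84 to 96 without SM sheep 30126. The breeds did not overlap in 36 members, 20 with all SM sheep above all STH sheep and 16 with the reverse, which is 20% of the members against 25.1% of all rows (12.2% and 12.9%). Absolute log2 fold changes over the threshold were found in 16 members (8.89%) and in 16.8% of all rows. The summed scaled RPKM of the members was 4427 ± 519 for SM (SD, n = 3) and 4135 ± 223 for STH (SD, n = 3), with SM 128 at 3929 and SM 30126 at 4964, so the breeds overlapped.

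**Figure D3:**
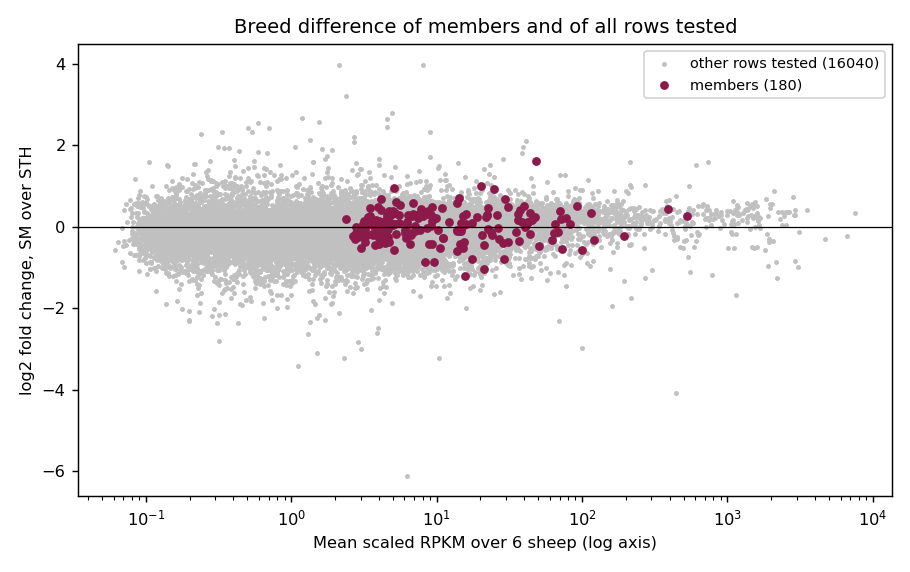
log2 fold change of SM over STH sheep (y axis) against the mean scaled RPKM over the 6 sheep (x axis, log scale), for the 180 members in dark red and the other rows tested in grey. The members run from -1.20 to 1.62 and lie within the cloud of the other rows.

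By gene type, SM sheep were higher in 11 of the 16 lncRNA members (median log2 fold change 0.23), in 30 of the 54 protein-coding members (0.10), in 19 of the 32 pseudogenes (0.02) and in 40 of the 76 members outside the table (0.03). Over all rows tested, SM sheep were higher in 51.1%. Unadjusted limma p under 0.05 was reached by 2 lncRNA members (12.5%), 7 protein-coding members (13.0%), 5 pseudogenes (15.6%) and 16 members outside the table (21.1%). The share over all rows tested was 18.5%, and the groups are small. None of these groups held a call.

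LOC101105867 had the smallest p of all members. It is a protein-coding model of 804 bases (chr21:49636837-49637640, plus strand), and its scaled RPKM was 40.3, 106 and 75.0 in SM against 25.5, 21.4 and 19.98 in STH. Every SM sheep was above every STH sheep, but SM 128 was closer to STH XW3 than to SM 30034. The log2 fold change was 1.62 ± 0.31 (adjusted p = 0.158), and it was 2.00 ± 0.19 without SM 128 (adjusted p = 0.0175). Without that sheep, 724 of all 15995 rows tested were called. When any other single sheep was left out, no member passed, and the smallest limma adjusted p of a member was 0.220 to 0.464. DESeq2 gave 1.75 ± 0.32 (adjusted p = 2.69e-05) and edgeR's quasi-likelihood test 1.75 ± 0.32 (adjusted p = 0.165) on the rebuilt fragments. The standard error for edgeR was worked back from its fold change and its test statistic. The model lies 2600 bases from IFITM3, tail to tail. That gene encodes a small membrane protein induced by interferon that restricts the entry of viruses. IFITM3 itself had 165, 247 and 229 in SM against 155, 110 and 87.0 in STH (log2 fold change 0.88 ± 0.24, adjusted p = 0.225). By its own test the study lists IFITM3 among the genes with higher expression in SM sheep. IFITM5, the next counted gene, had a log2 fold change of 1.01 (adjusted p = 0.235), and its breeds overlapped.

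LOC101111343 (chr2:183564949-183565994), a model outside the name table, lies 4170 bases downstream of STEAP3, a ferrireductase gene of cellular iron uptake. It reached 30.8, 27.4 and 38.4 in SM against 13.2, 19.3 and 18.6 in STH, a log2 fold change of 0.92 ± 0.19 (adjusted p = 0.175). The breeds were well apart. STEAP3 was low, with a mean scaled RPKM of 1.48 and a log2 fold change of 0.54 ± 0.21. LOC105609393 (chr12:1456429-1461542), an lncRNA that lies head to head with PPP1R15B at a distance of 155 bases, had 15.3, 17.8 and 17.1 in SM against 12.1, 10.6 and 10.6 in STH, a log2 fold change of 0.59 ± 0.13 (adjusted p = 0.186). PPP1R15B, which encodes a subunit that directs a phosphatase to the translation factor eIF2 alpha, was instead at -0.17 ± 0.13. These 3 members, LOC101105867, LOC101111343 and LOC105609393, were those that DESeq2 called.

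LOC101105444 (chr18:68023158-68024271), 75 bases downstream of the cell cycle gene CDCA4, had 6.05, 6.50 and 7.26 in SM against 4.60, 4.08 and 4.98 in STH (log2 fold change 0.53 ± 0.15). LOC105611998, which the name table gives as COPS9, a small component of the COP9 signalosome, had 4.12, 5.34 and 5.99 in SM against 2.79, 2.80 and 4.0 in STH (0.67 ± 0.21, adjusted p = 0.232). In both genes the lowest SM sheep was 128, and in COPS9 it stood barely above STH XW8.

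On the STH side, LOC105606709 (chr5:58292561-58294589) had the smallest p. It lies on the same strand within CSNK1A1, a casein kinase of the WNT pathway, so that reads of the host and of the member cannot be told apart. Its values were 63.7, 63.2 and 52.1 in SM against 83.8, 92.4 and 83.2 in STH, with no overlap (log2 fold change -0.54 ± 0.14, adjusted p = 0.213). CSNK1A1 was at -0.38 ± 0.16.

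LOC101123338 (chr1:90957116-90957991) had 12.1, 13.7 and 11.6 in SM against 17.3, 19.5 and 16.1 in STH (-0.50 ± 0.14, adjusted p = 0.225). LOC106991227 (chr6:6182098-6185330), antisense to C6H4orf3, had 13.8, 13.6 and 10.6 in SM against 18.2, 17.7 and 17.9 in STH sheep (-0.51 ± 0.14). Here the STH sheep were nearly equal, and the library kit does not mark strand, so reads of the overlapping genes cannot be told apart. LOC101121149, a pseudogene on the X chromosome (chrX:32880947-32881825), was at 3.42, 4.43 and 4.36 in SM against 5.55, 5.95 and 6.70 in STH (-0.57 ± 0.17). LOC101122224 (chr19:55684455-55684990), typed as protein-coding, was at 38.2, 39.1 and 50.4 in SM against 59.4, 59.2 and 55.9 in STH (-0.46 ± 0.15). None of these passed the test, with adjusted p between 0.213 and 0.232.

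**Figure D4:**
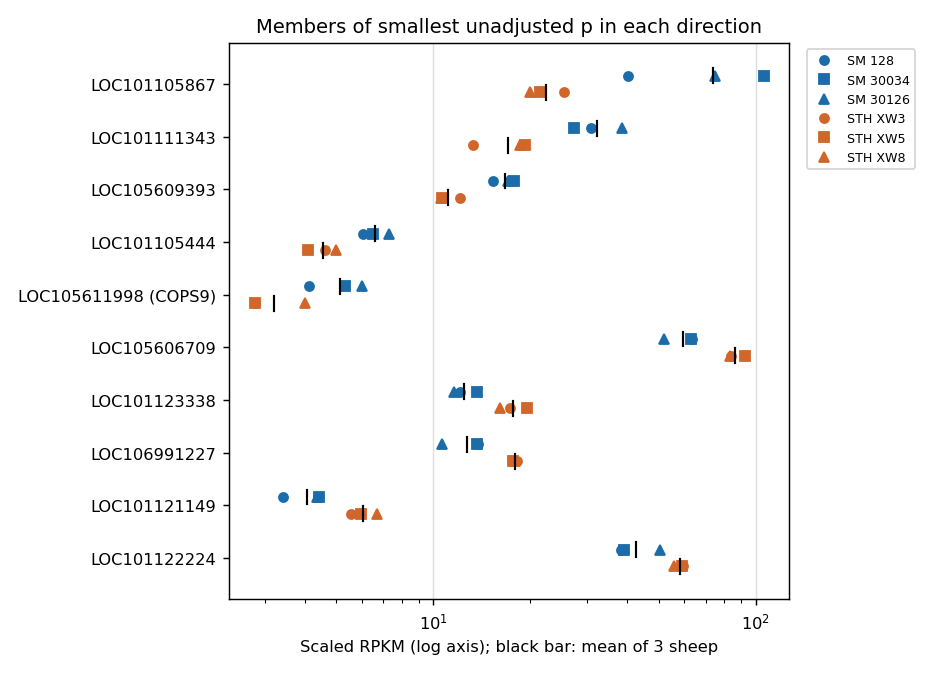
Scaled RPKM (x axis, log scale) of the 5 members of smallest unadjusted p in each direction, with 1 point for each sheep, SM in blue and STH in orange, and a black bar for the mean of 3 sheep. The 10 were picked by p from these same sheep, a choice that itself favours genes whose breeds do not overlap. The breeds do not overlap in any of the 10, in 20% of all members and in 25.1% of all rows tested. The adjusted p of the 10 lies between 0.158 and 0.232 (limma).

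None of the 19 members with a symbol was called. UBL5 (LOC101110503), a ubiquitin-like protein that acts in splicing, had 53.4, 68.3 and 78.8 in SM against 64.0, 64.5 and 59.3 in STH. ATP5F1E (LOC105606223), the epsilon subunit of the mitochondrial ATP synthase, had 36.1, 55.9 and 64.0 in SM against 47.6, 40.4 and 40.3 in STH. RPS28 (LOC101103316), a protein of the small ribosomal subunit whose row the table types as lncRNA, had 32.8, 45.4 and 64.4 in SM against 36.9, 29.8 and 29.2 in STH. In all 3 genes SM 128 had the lowest and SM 30126 the highest SM value, and the STH animals lay within the SM range or just below it. For RPS28, which overlaps NDUFA7 on the opposite strand, the log2 fold change was 0.53 ± 0.24 (adjusted p = 0.278).

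ATP5IF1 (LOC101110916), the inhibitor of the same ATP synthase, had a mean of 10.6 in SM against 9.06 in STH, and POLR2L (LOC105604154), a subunit shared by the nuclear RNA polymerases, of 10.1 and 8.67. Both overlapped between the breeds. KIAA2013 had 6.58, 7.08 and 9.21 in SM against 6.56, 5.52 and 6.13 in STH, and C17H22orf39 (LOC105612811) had 6.63, 7.08 and 7.45 in SM against 5.56, 5.96 and 5.55 in STH. In these 2 genes all SM sheep were above all STH sheep, for KIAA2013 only just, with log2 fold changes of 0.31 ± 0.17 and 0.30 ± 0.13 and adjusted p of 0.333 and 0.272. IRX2 (LOC101102588), a homeobox transcription factor, had 13.0, 14.7 and 14.5 in SM against 12.5, 15.5 and 17.5 in STH, and HES4 (LOC105609730), a transcriptional repressor downstream of Notch, 7.37, 5.70 and 6.30 in SM against 4.74, 5.004 and 8.44 in STH. CKS2 (LOC101103869), which binds cyclin-dependent kinases, had a log2 fold change of -0.20 ± 0.20.

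A second row of the same symbol that did have counts was present for 3 members. MARVELD1 was split into a counted row of 870 bases and the member LOC105604242, which begins 90 bases downstream of it on the same strand. The counted row had a mean scaled RPKM of 5.90 and a log2 fold change of 0.00 ± 0.17, and the member a mean of 13.8 and -0.07 ± 0.18. For FLYWCH2 the counted row had a log2 fold change of 0.43 ± 0.32 and the member LOC101116622 of 0.02 ± 0.17. C1H1orf56 had a mean of 0.236 in its counted row and of 4.15 in the member LOC101111063. Neither row of any of the 3 symbols was called.

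Many members lay at the edge of a counted gene. A counted gene was overlapped by 19 members (10.6%), 3 on the same and 16 on the opposite strand, and a further 40 (22.2%) lay within 1 kb of one without overlap. Of the counted rows themselves 11.5% overlapped another counted row and 19.5% lay within 1 kb of one, shares close to those of the members. Of the 40, 23 were downstream of the gene on its own strand, 9 head to head with it, 5 tail to tail and 3 upstream on its strand. Those downstream included models 3 bases from MLXIP (LOC105602872), 6 bases from the splicing factor gene RBFOX2 (LOC106991082), 17 bases from GALNT10 (LOC106991198) and 494 bases from FOSL2 (LOC105610521), a member of the AP-1 family. Head to head lay, among others, models 185 bases from HOXC9 (LOC105614720) and 383 bases from SOX4 (LOC106991811).

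Over the 40 members within 1 kb, the log2 fold change of the member and of its neighbour had the same sign in 25 and a Pearson r of 0.43 (Spearman rho 0.41). For 17 overlapping members whose gene was tested, r was 0.30, and for 99 members farther away, with a median distance of 13932 bases, it was 0.20. These are descriptions across genes, which are not independent, and both values of a pair come from the same 6 libraries. LOC106991198 had a log2 fold change of 0.38 ± 0.16 beside 0.49 ± 0.15 for GALNT10, and LOC105606170, 135 bases downstream of the collagen gene COL6A2, of 0.43 ± 0.16 beside 0.22 ± 0.12. Others went apart: LOC105615253 was at -0.52 ± 0.22 beside 0.01 ± 0.16 for RAB24, from which it is 31 bases away, and LOC101123133, which overlaps TLK2 on the opposite strand, at 0.96 ± 0.37 beside -0.37 ± 0.19.

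**Figure D5:**
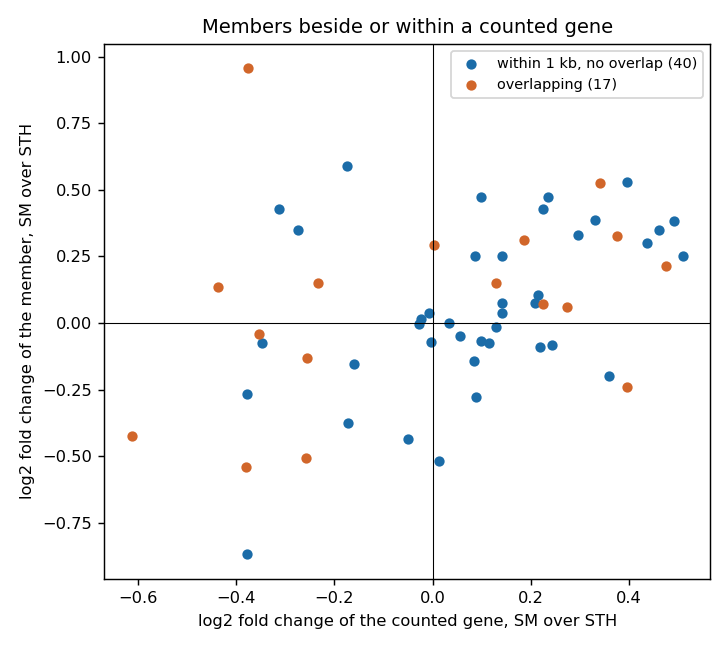
log2 fold change of SM over STH sheep of each member (y axis) against that of the counted gene it lies beside or overlaps (x axis), with 1 point for each member, blue within 1 kb and orange for overlaps. The 40 blue points share the sign of their neighbour in 25 cases.

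Several members lay in gene clusters of the skin or of the immune system. These were picked by position after their values had been seen. In the epidermal differentiation complex on chromosome 1, whose genes build the cornified envelope of the epidermis, 4 members lay from LOC105614406 up to the involucrin gene IVL. LOC101122482 (chr1:101509677-101511302) had 26.2, 18.2 and 17.9 in SM against 22.7, 35.6 and 53.9 in STH, a log2 fold change of -0.78 ± 0.30 (adjusted p = 0.242). The log2 fold changes of LOC105614406, LOC106990821 and LOC101122906 were -0.21, -0.28 and -0.13, with adjusted p from 0.530 to 0.853. Among counted rows of the same stretch only LOC101121986 was above 0, at 0.98. The others ran from -0.35 (SMCP) to -1.03 (IVL). STH XW8 was the highest sheep in all 4, and LOC101122906, an lncRNA, had 119 there against 36.5 in STH XW5. Of the 5 keratinocyte markers found, 0 were higher in SM sheep, and their summed scaled RPKM was 2156 to 2640 in SM and 2653 to 4373 in STH sheep, with the highest value in XW8. The part of keratinocyte content in these differences was not tested. In the keratin cluster of chromosome 11, LOC105610158 had 4.29, 4.95 and 3.89 in SM against 4.12, 4.19 and 3.60 in STH. LOC106991427 had 30.01, 28.0 and 46.2 in SM against 28.8, 12.7 and 38.7 in STH, and its lowest sheep, STH XW5, was also the lowest for KRTAP1-1, a keratin-associated protein of the wool fibre, at 246 against 349 to 1001 in the other sheep.

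LOC101108522 (chr18:68435691-68438179), the member typed as a constant region, had 27.1, 45.7 and 34.0 in SM against 17.0, 15.6 and 37.8 in STH (0.69 ± 0.34, adjusted p = 0.3004). The 9 plasma and B cell markers together reached 3.88 to 9.62 in SM and 6.29 to 10.7 in STH sheep, and none of them was at 0 in every sheep. Of the 5 that were tested 3 were higher in SM, their median was 0.26 on the log2 scale, and JCHAIN, which made up most of the sum, was at -0.90. The 5 T cell markers found were all higher in SM, and their sum was 20.4 to 29.1 in SM against 15.8 to 20.1 in STH. The part of either cell type in the level of LOC101108522 was not tested. In the major histocompatibility complex of chromosome 20, LOC105603775 had 11.6 in SM 30034 and 6.53 in STH XW8 but 2.01 to 2.44 in the other 4 sheep. The counted gene nearest to it, LOC105614324 at 37 bases, had 6.07, 26.3 and 30.2 in SM against 8.13, 7.32 and 32.6 in STH, so that SM 30126 was high there but not in the member. MICA, a stress-induced ligand 3990 bases away, was highest in SM 30034 and STH XW8, at 5.30 and 9.17 against 3.07 to 4.76. The transcribed pseudogene LOC101116687, 4978 bases from the heat shock gene HSPA1A, had 8.11 to 17.1 and was highest in STH XW5, where HSPA1A was at 11.3 against 10.98 to 60.7 over all sheep.

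A single library set many of the extremes. SM 30126 was the highest sheep in 76 members (42.2%) and the lowest in 39 (21.7%), where over all rows tested it was highest in 33.0% and lowest in 32.0%. It was the lowest sheep in 9 of the 21 members with a span over 5 kb and the highest in 6. Among the 159 shorter ones it was lowest in 30 and highest in 70. With a limit of 3 kb it was lowest in 13 of 38 and highest in 15. Both limits were chosen after the data had been seen. LOC101112291, the longest member at 36220 bases and an lncRNA on the X chromosome, had 20.2, 9.24 and 3.30 in SM against 13.8, 27.1 and 20.6 in STH (-1.20 ± 0.57, adjusted p = 0.292), and LOC101104348, of 18707 bases, 19.2, 17.5 and 7.17 in SM against 29.2, 23.4 and 31.1 in STH (-1.04 ± 0.34, adjusted p = 0.237). LOC105615677, of 14167 bases, had 9.82, 6.83 and 4.30 in SM against 10.9, 14.004 and 11.3 in STH. Without SM 30126, the log2 fold changes of LOC101112291, LOC101104348 and LOC105615677 were -0.53, -0.59 and -0.55. In these 3 the level was lowest in SM 30126 and the SM sheep differed among themselves by more than 2-fold. The share of counted fragments that reached the total count was 77.3% in SM 30126 and 65.5% to 71.0% in the other sheep, and the part of this in the values of the long members was not tested.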

How the data were processed

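RNA-seq of skin from 3 SM and 3 STH sheep was analysed, 1 library for each sheep, grouped by the strain in the labels. Reads were mapped by the authors in the CLC Genomics Workbench against Oar_v4.0, and 1 table per animal was deposited. The deposited total count is a whole number without normalization. RPKM, as deposited by the authors, is scaled to gene length and to the counted fragments of the library. The deposited TPM, RPKM rescaled to a common sum, served as an alternative only, and the score that the authors call CPM was not used. How reads matching several places were shared is not given in the sources used here, so members that resemble other genes may hold reads of those genes.

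The members and lists were chosen with earlier results of these data known. Deposited RPKM was scaled by TMM factors of the total counts (edgeR 4.0.16, R 4.3.3), relative to the counted fragments, which were derived from RPKM and count. log2(RPKM + 0.1) was compared by limma 3.58.1 with a trend over rows that reached 0.1 in 3 or more libraries, and p-values were adjusted by Benjamini-Hochberg. A call needed a log2 fold change beyond 0.585 in size and an adjusted p below 0.05. The fit was tested on simulated data. Fragments of uncounted rows were rebuilt for edgeR and DESeq2 1.42.0, after the data had been seen. They count both reads of a pair, so they exceed the number of independent molecules sequenced. Total counts ranged from 28870583 to 44645091, and 3 fragments over 1 kb equal an RPKM of 0.0477 to 0.0681, which covers counting error only.

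Named were the 10 members of highest level, the 5 of smallest p in each direction, the 10 highest with a symbol, the 2 highest of each type, the 3 rows nearest the limit on each side, and counted rows of the same symbol. Others, by position, span or neighbour, were picked after their values were seen. Coordinates are those of the files, and the RefSeq table matched 21630 of 28394 identifiers and gave only names and types. The limma p-values set the difference of the breed means against the spread among these sheep within the breeds. The spread of each row was drawn toward that of rows of similar level.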

Additional observations from a re-analysis of the deposited data

How the results depend on the processing

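Over all rows tested, 6 were called, and this count was 2 with a pseudocount of 1, with RPKM as deposited, with a filter at an RPKM of 1 in 3 or more libraries, with robust shrinkage and with edgeR on rebuilt fragments. It was 0 without a filter, 3 over uncounted rows alone, 10 with TPM and 415 with DESeq2 on rebuilt fragments, and 0 to 724 when single sheep were left out, the highest without SM 128. Of the members 0 were called, except 3 by DESeq2 and 0 to 5 when single sheep were left out. The 5, all without SM 128, were LOC101105867, LOC101112592 and LOC105609393 (higher in SM) and LOC105608259 and LOC105615677 (higher in STH). Members at an unadjusted p under 0.05 numbered 14 without STH XW5 (7.78%, against 7.96% of all rows tested), 47 without SM 128 (26.1% against 29.4%) and 18 over uncounted rows alone (both shares near 10%), where the main comparison gave 30. The cause was not tested.

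The number of members was 102 at an RPKM of at least 5, 278 at a TPM of at least 2 and 265 at an RPKM of at least 1. Their summed level differed by 0.09 on the log2 scale (SM minus STH), and by 0.01 to 0.18 when single sheep were left out.

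Among named members, the log2 fold change turned to -0.025 with TPM for LOC105610521 and to -0.023 for UBL5 (LOC101110503). For LOC101109850 it turned to 0.035 with edgeR and 0.030 with DESeq2. With single sheep left out, members whose direction turned had values from -0.060 to 0.19 (LOC105610521), -0.090 to 0.44 (LOC105603284), -0.052 to 0.23 (UBL5), -0.22 to 0.013 (LOC101102588, IRX2), -0.21 to 0.053 (LOC105604242, MARVELD1), -0.020 to 0.36 (LOC105604154, POLR2L), -0.017 to 0.39 (LOC105609730, HES4), -0.56 to 0.29 (LOC101122906), -0.050 to 0.36 (LOC105610883), -0.51 to 0.0083 (LOC101116687), -0.48 to 0.81 (LOC105603775) and -0.51 to 0.090 (LOC101109850). With all sheep, their values lay between -0.26 and 0.30. The other members named by rule kept their direction under every alternative run.

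No paired analysis was possible because the labels name individual animals and share no number between the breeds. The tests on rebuilt fragments were planned on an exon length and were not run in that form. Those given here use the whole span and were added after the data had been seen.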

Other observations

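Outside the members, 1 row without a count did pass the breed comparison, and it was looked at after its values had been seen. LOC101123213, a protein-coding model of 754 bases (chr7:21430442-21431195, Oar_v4.0, minus strand), had a scaled RPKM of 9.88, 16.1 and 19.6 in SM against 1.01, 0.960 and 0.578 in STH. The log2 fold change was 3.99 ± 0.29 (limma, adjusted p = 0.00962, SM over STH). It is no member because its RPKM was under 2 in the STH sheep. Of the 1113 other uncounted nuclear rows tested, 397 had the higher mean in SM and 716 in STH, and the median log2 fold change was -0.18, against 0.04 for the members. The 2 sets passed unlike filters, so these medians are not a like comparison. A member needed an RPKM of 2 in all 6 sheep. The other rows needed 0.1 in 3 sheep, which could all be of 1 breed.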
